A study of Mus musculus with 5 samples.

Results

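*Art1*, *Ces1d* and *Xirp2* are 3 of the 28416 numbered genes measured by RNA-seq in mouse ventricles, and were chosen from the values themselves. Among the named genes called higher at postnatal day 38 (PN38) than at postnatal day 3 (PN3), they had the largest ratios of FPKM (defined below). The RNA came from ventricles, with atria and blood removed, of male mice of a mixed 129v/BL6 strain. Knockout (*Celf1* -/-) ventricles gave 2 libraries, all at PN3, and wild-type (*Celf1* +/+) ventricles gave 2 libraries at PN3 and 1 at PN38. The knockout of the RNA binding protein Celf1 is constitutive and not restricted to a cell type. No knockout library at PN38 was analysed here, and the labels do not say whether a library came from 1 animal or from several.

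*Art1* encodes an arginine-specific mono-ADP-ribosyltransferase that is held on the outer surface of muscle cells by a lipid anchor and transfers ADP-ribose from NAD to target proteins. *Ces1d* encodes a carboxylesterase of the endoplasmic reticulum, also known as triacylglycerol hydrolase, which hydrolyses neutral lipids and is abundant in liver and adipose tissue. *Xirp2* encodes an actin-binding protein of the Xin family that sits at the intercalated disc, the junction that couples neighbouring cardiomyocytes, and it is a known target of the muscle transcription factor MEF2A. In the mouse, the weeks after birth are when cardiomyocytes stop dividing, turn to fatty acids as fuel and assemble mature intercalated discs.

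In mm9, *Art1* (protein coding) lies on the plus strand of chromosome 7 from 109250257 to 109259662, *Ces1d* (protein coding) on the minus strand of chromosome 8 from 95689967 to 95721737, and *Xirp2* (protein coding) on the plus strand of chromosome 2 from 67284059 to 67364671, according to GENCODE vM1. The first 1103 bases of the *Art1* locus, from 109250257 to 109251359, also belong to *Art5*, a gene of the same enzyme family on the minus strand. *Gm13601*, a non-coding gene on the minus strand, lies inside *Xirp2* from 67329101 to 67354582. These are overlaps of gene spans. Of the *Art5* transcripts only Art5-001 reaches into *Art1*, and the spliced transcript of *Gm13601* has 404 bases. The sources used here do not say whether fragments were counted by strand, so reads could not be told apart where exons of 2 genes overlap.

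The start regions of *Art1* and *Xirp2* are printed because both genes went from low levels at PN3 to high levels at PN38. RefSeq start regions were found for these 2 of the 3 genes. Each runs from 250 bases before the RefSeq start to 50 bases after it in GRCm38.p6, at chr7:102101493-102101792 on the plus strand for *Art1* and at chr2:67445752-67446051 on the plus strand for *Xirp2*. Capitals mark matches to the motifs searched on both strands, with the MEF2 and CArG motifs among them. The E-box was searched as CANNTG. The MCAT element, which binds TEAD factors, was searched as CATTCC. For the core promoter element known as TATA box the letters were TATAAA. For the site of the GATA factors of the heart the letters were AGATAA.
Art1: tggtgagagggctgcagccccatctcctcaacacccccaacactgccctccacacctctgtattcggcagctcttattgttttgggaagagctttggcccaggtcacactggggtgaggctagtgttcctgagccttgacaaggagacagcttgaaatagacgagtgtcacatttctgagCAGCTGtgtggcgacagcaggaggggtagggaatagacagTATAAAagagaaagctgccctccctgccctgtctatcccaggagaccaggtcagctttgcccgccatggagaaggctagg
Xirp2: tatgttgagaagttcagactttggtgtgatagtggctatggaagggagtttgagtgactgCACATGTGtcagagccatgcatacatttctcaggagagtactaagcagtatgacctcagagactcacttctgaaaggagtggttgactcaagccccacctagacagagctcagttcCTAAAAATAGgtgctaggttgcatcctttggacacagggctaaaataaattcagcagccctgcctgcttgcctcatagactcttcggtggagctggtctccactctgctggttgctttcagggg
The *Xirp2* stretch held 1 MEF2 match (CTAAAAATAG), a motif found in 3.2% of 32851 RefSeq start regions of the same length. It also held 2 E-box matches, CACATG and CATGTG, which overlap each other. The *Art1* stretch held 1 TATA box, which 13.6% of all start regions have, and 1 E-box (CAGCTG), which 72.3% have. Neither stretch held a MCAT, GATA or CArG match, which 14.7%, 11.2% and 1.6% of all start regions have. A match is a description of the letters, and binding was not measured.

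Levels are given as the deposited FPKM, a fragment count divided by the length of the transcript and by the library total. *Art1* measured 121.3 FPKM in the PN38 library. At PN3 it measured 3.11 and 3.96 FPKM in wild-type hearts against 1.17 and 1.25 FPKM in knockout hearts. The groups of *Art1* did not overlap, with knockout hearts lowest. *Ces1d* measured 61.7 FPKM at PN38, 1.13 and 2.82 FPKM in wild-type and 0.48 and 0.86 FPKM in knockout hearts at PN3. *Xirp2* measured 199 FPKM at PN38, 8.99 and 7.48 FPKM in wild-type and 3.00 and 5.64 FPKM in knockout hearts at PN3. For each of the 3 genes the PN38 library was the highest of the 5, both wild-type libraries at PN3 came next, and both knockout libraries were the lowest. The place of PN38 was fixed by the choice of the genes. Both knockout libraries were below both wild-type libraries in 30.3% of the 12502 genes tested at PN3. The share of genes with the full order of 3 groups was not counted. On the TPM scale, which sets every library to the same sum, the full order held for all 3 genes. *Art1* was at 171 TPM at PN38, 5.10 and 6.65 TPM in wild-type and 1.91 and 2.07 TPM in knockout hearts. *Ces1d* was at 86.9 TPM, 1.86 and 4.74 TPM, and 0.78 and 1.43 TPM in the same order. *Xirp2* was at 280 TPM, 14.7 and 12.6 TPM, and 4.91 and 9.34 TPM. The order among the genes, *Xirp2* above *Art1* above *Ces1d*, was the same in all 5 libraries, and in wild-type hearts at PN3 the means of *Art1* and *Ces1d*, 3.54 ± 0.601 and 1.98 ± 1.195 FPKM (SD, n = 2 each), differed by less than the sum of their SDs.

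**Figure D1:**
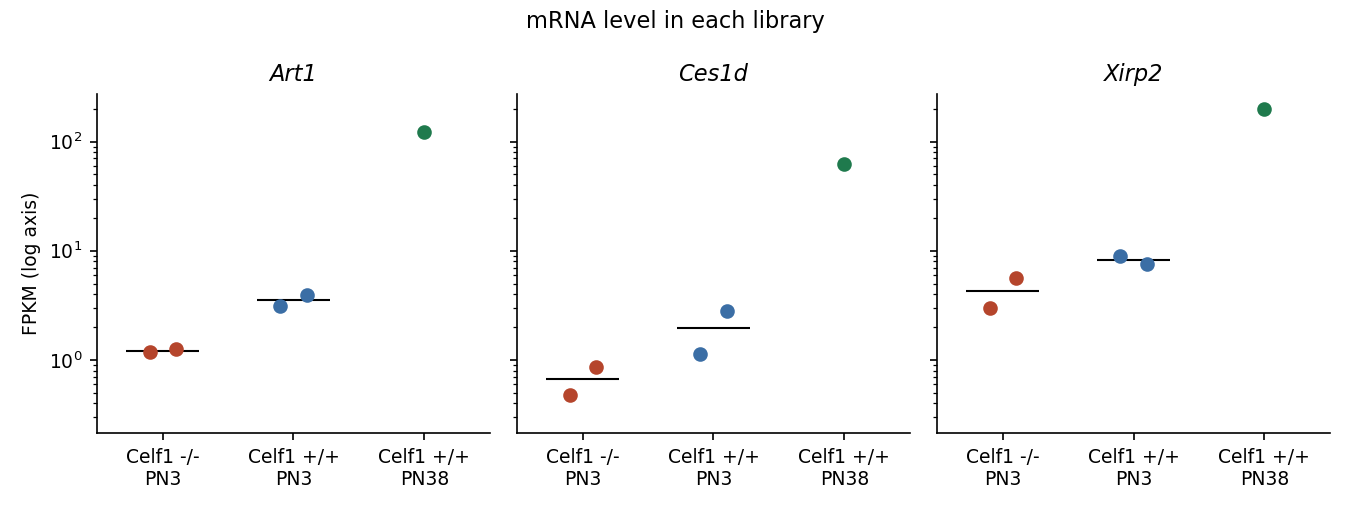
FPKM of *Art1*, *Ces1d* and *Xirp2* on a logarithmic axis in the 2 knockout libraries at PN3, the 2 wild-type libraries at PN3 and the 1 wild-type library at PN38. Points are libraries and bars are means of 2 libraries. In each panel the PN38 library stands highest (121.3, 61.7 and 199 FPKM) and the knockout libraries lowest.

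The libraries held between 108044284 fragments (PN38) and 139769909 fragments (knockout, replicate 2) on genes, so the lowest counts of these genes were still well above 0. *Ces1d* had 115 and 216 expected counts in knockout and 262 and 620 in wild-type hearts at PN3, against 11971 at PN38. The lowest of these, 115, has a 95% Poisson interval from 94.9 to 138, which covers counting error only. *Art1* had 196 to 606 expected counts in the PN3 libraries and 16546 at PN38, and *Xirp2* had 4489 to 10570 and 172431. In the order of FPKM in each library, *Xirp2* was gene 433, *Art1* gene 666 and *Ces1d* gene 1261 at PN38. At PN3 in wild-type hearts they stood between places 7289 and 8065, 10012 and 10548, and 10813 and 12308.

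Libraries were checked against their labels and for markers of other cells before the comparisons. The targeted gene, *Celf1*, measured 2.61 and 3.03 FPKM in the knockout libraries against 28.4 to 58.4 FPKM in the others. Of 14 cardiomyocyte markers 7 carry a name, and their summed level was 3503 to 3721 FPKM in knockout and 2829 to 4065 FPKM in wild-type hearts at PN3 and 1581 FPKM at PN38, with *Tnni1*, the troponin of the fetal heart, the most abundant of them at PN3. At PN3 the sum is carried by the fetal and atrial genes among them, *Tnni1*, *Myh7*, *Myl7* and *Myl4*, and the other 3 had the same order of groups as *Art1*, *Ces1d* and *Xirp2*. *Hrc*, a calcium binding protein of the sarcoplasmic reticulum, measured 82.5 and 81.3 FPKM in knockout and 118 and 122 FPKM in wild-type hearts at PN3, and 434 FPKM at PN38. *Tcap*, a Z-disc protein, was at 162 and 172, 220.0 and 231, and 953 FPKM, and *Ryr2*, the calcium release channel, at 75.1 and 73.9, 108 and 110.1, and 129.7 FPKM. *Hrc* and *Tcap* were called higher at PN38, and such a gene carries a name only if the study also listed it at PN3. *Ryr2* was not called at PN38 and also carries a name only because the study listed it as changed. The order of these markers at PN3 is therefore not independent of how they came to be named. In 30.3% of the 12502 genes tested at PN3 both knockout libraries were below both wild-type libraries in FPKM. The 5 named of 7 erythroid markers summed to 2296 to 4902 FPKM in knockout and 7221 to 7487 FPKM in wild-type hearts at PN3, and to 6255 FPKM at PN38. That sum is mostly globin, and 4 of the 5 were lower in both knockout libraries, as were 30.3% of the genes tested. The 5 carry names only because the study listed them as changed. *Slc4a1* was at 0.73 and 2.33 FPKM in knockout and 1.57 and 1.19 FPKM in wild-type hearts. All 8 fibroblast markers are named and summed to 1826 to 1894, 2000 to 2308 and 762 FPKM. The 3 named of 10 lung markers summed to 13.4 to 25.0, 7.32 to 8.68 and 0.88 FPKM, with *Scgb3a2* at 0 at PN38. The 2 named of 15 skeletal muscle markers summed to 38.4 to 60.6, 45.4 to 53.6 and 65.1 FPKM. Endothelium and macrophage had 1 named marker of 5 each, *Vwf* (11.8 to 14.6, 8.63 to 9.93 and 15.3 FPKM) and *Cd68* (2.38 to 3.19, 4.71 to 5.39 and 7.56 FPKM). The groups of *Cd68* had the same order as those of *Art1*, *Ces1d* and *Xirp2*, so that order was also seen outside the cardiomyocyte markers. *Cd68* was not called at PN38 and carries a name only because the study listed it as changed. Its order at PN3 is therefore not independent of the naming either. None of 10 adipocyte or 8 hepatocyte markers carries a name, so neither tissue could be followed. The part of other cells in the values of *Art1*, *Ces1d* and *Xirp2* was not tested, and in whole ventricles fewer cells of a type and less RNA per cell cannot be told apart.

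The first comparison was between PN38 and PN3 in wild-type ventricles, and asked which genes change as the heart matures. The ratio of FPKM at PN38 to the mean at PN3 was 34.3 for *Art1*, 31.2 for *Ces1d* and 24.1 for *Xirp2*. Since this difference chose the 3 genes, it is given as a description, with no test. The log2 fold change on TMM-normalized counts was 5.56 for *Art1*, 5.42 for *Ces1d* and 4.88 for *Xirp2*. These are larger than the log2 ratios of FPKM, 5.10, 4.97 and 4.59, and the median gene stood at −0.46 on the FPKM scale and at −0.02 after TMM normalization. For *Xirp2* the mean transcript length, which enters FPKM and not counts, also differed between the ages. Set against the single PN3 libraries, the ratio of FPKM ran from 30.6 to 39.0 for *Art1*, from 21.9 to 54.6 for *Ces1d* and from 22.1 to 26.6 for *Xirp2*. PN38 has 1 library, so that age and that library cannot be told apart.

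Of the 12816 genes compared, 940 were called higher at PN38 in edgeR's quasi-likelihood test at FDR 0.05 and 2.0 fold, which is 7.33% of the genes, and nothing is read from the calls of the 3 genes in this comparison. The median gene called higher was at 10.7 FPKM at PN38. By the ratio of FPKM *Art1* was in place 49, *Ces1d* in place 51 and *Xirp2* in place 61. All 48 genes above *Art1* are unnamed, and 47 of them were under 1 FPKM in both wild-type libraries at PN3. Among the 12374 genes that reached 1 FPKM in each of those libraries, *Art1* was in place 1, *Ces1d* in place 2 and *Xirp2* in place 4, with the unnamed gene 7198 between them at a ratio of 30.4. The next named gene was *2310002L09Rik*, with 27.2 FPKM at PN38, 1.09 and 1.25 FPKM in wild-type and 2.62 and 1.88 FPKM in knockout hearts at PN3, a ratio of 23.3 against 24.1 for *Xirp2*. On TMM-normalized counts *2310002L09Rik* stood above *Xirp2*, with log2 fold changes of 5.05 against 4.88, and *Xirp2* was in place 6 of those 12374 genes. Unlike *Art1*, *Ces1d* and *Xirp2*, *2310002L09Rik* had higher FPKM in both knockout libraries than in both wild-type libraries.

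**Figure D2:**
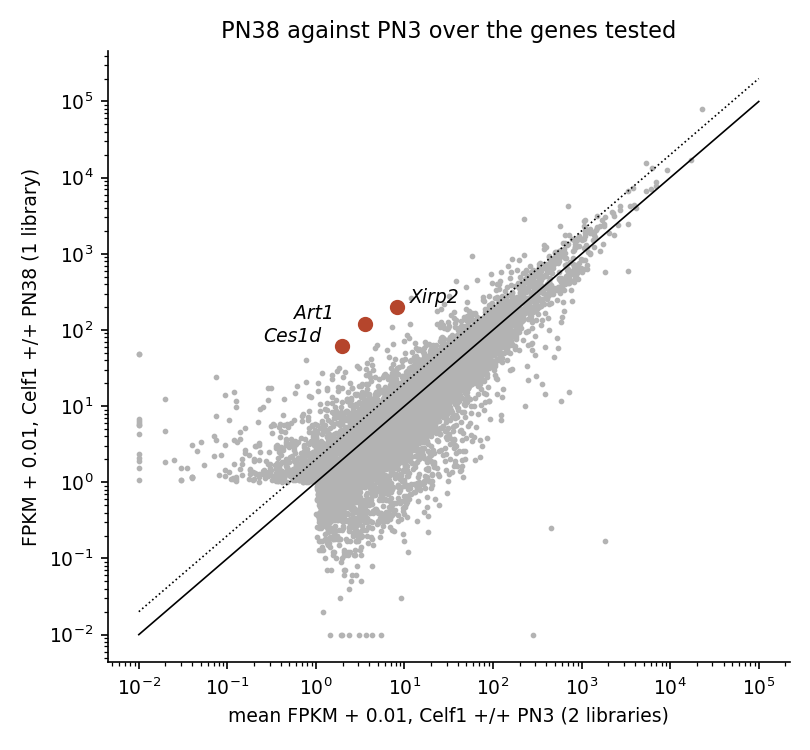
FPKM at PN38 (1 library) against mean FPKM at PN3 (2 libraries) in wild-type ventricles for the 12816 genes compared, on logarithmic axes after adding 0.01. The solid line marks equal levels and the dotted line 2.0 fold. *Art1*, *Ces1d* and *Xirp2* lie far above both lines, with ratios of 34.3, 31.2 and 24.1.

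The second comparison was between knockout and wild-type ventricles at PN3, and asked whether the 3 genes were lower without Celf1. Each of them was lower in both knockout libraries than in both wild-type libraries, and the quasi-likelihood test of edgeR called 0 of the 3 at FDR 0.05. That test called 6 of 12502 genes lower (0.048%) and 1 higher (0.008%) at FDR 0.05 and 1.5 fold, and in 30.3% of the genes both knockout libraries were below both wild-type libraries in FPKM. All 3 had an unadjusted p under 0.05, as did 11.6% of the genes in that direction. The names of the 3 genes come from the study's own list of genes that differ between genotypes at PN3, and so do those of all 108 named genes among the 940 called higher at PN38. Their difference between genotypes is therefore not independent of how they came to be named.

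*Art1* differed the most relative to its spread. Its mean was 1.21 ± 0.0566 FPKM in knockout and 3.54 ± 0.601 FPKM in wild-type hearts (SD, n = 2 each), a 2.92-fold lower level, and the lowest wild-type library was 2.49 times the highest knockout library. Its log2 fold change of −1.53 had a standard error of 0.173 and a Benjamini-Hochberg adjusted p = 0.077 in the quasi-likelihood test of edgeR. It passed FDR 0.05 in edgeR's exact test (adjusted p = 5.3e-08), in DESeq2 (adjusted p = 7.5e-08) and in the quasi-likelihood test with all 5 libraries (adjusted p = 0.047). Without wild-type replicate 1 the quasi-likelihood adjusted p was 0.046, with a log2 fold change of −1.68. The exact test and DESeq2 called 1.73% and 1.86% of the genes lower.

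*Ces1d* had a similar ratio of means with a much wider spread. Its mean was 0.67 ± 0.269 FPKM in knockout and 1.98 ± 1.195 FPKM in wild-type hearts (SD, n = 2 each), a 2.95-fold lower level, but the lowest wild-type library was 1.31 times the highest knockout library. Its log2 fold change of −1.54 had a standard error of 0.496 and an adjusted p = 0.17 by quasi-likelihood in edgeR. In edgeR's exact test and in DESeq2 it passed FDR 0.05, with adjusted p of 0.047 and 0.024. Without wild-type replicate 2 the log2 fold change was −0.75 (adjusted p = 0.55), and without wild-type replicate 1 it was −2.04 (adjusted p = 0.059), both from edgeR's quasi-likelihood test. *Ces1d* reached the minimum of 1 FPKM only in wild-type hearts, and a difference in this direction came with its entry.

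*Xirp2* had the smallest difference of the 3. Its mean was 4.32 ± 1.87 FPKM in knockout and 8.24 ± 1.07 FPKM in wild-type hearts (SD, n = 2 each), a 1.91-fold lower level, and the lowest wild-type library was 1.33 times the highest knockout library. Counts gave a log2 fold change of −0.68 with a standard error of 0.257 and an adjusted p = 0.20 by quasi-likelihood in edgeR, against −0.93 for the log2 ratio of mean FPKM. It passed FDR 0.05 in DESeq2 (adjusted p = 0.032) and not in edgeR's exact test (adjusted p = 0.11). Without knockout replicate 1 the log2 fold change was −0.37, and without knockout replicate 2 it was −1.09.

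**Figure D3:**
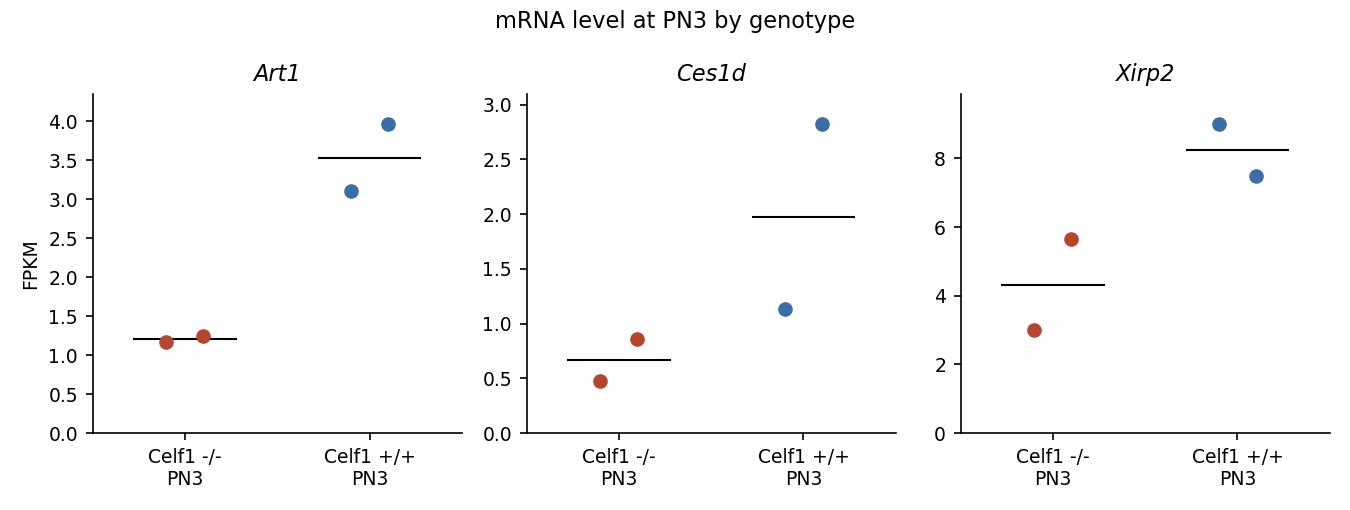
FPKM of *Art1*, *Ces1d* and *Xirp2* at PN3 on linear axes from 0, by genotype. Points are libraries and bars are means of 2 libraries. The knockout points lie below the wild-type points in each panel, with the widest gap for *Art1* (1.25 against 3.11 FPKM) and narrow gaps for *Ces1d* (0.86 against 1.13 FPKM) and *Xirp2* (5.64 against 7.48 FPKM).

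The replicates of *Ces1d* and *Xirp2* differed more than those of most genes. *Ces1d* differed 2.496-fold between the wild-type replicates, and 0.384% of the 12502 genes differed by as much. Between the knockout replicates *Ces1d* differed 1.79-fold and *Xirp2* 1.88-fold, and 1.39% and 1.16% of the genes differed by as much. *Art1* differed 1.27-fold and 1.07-fold, and 7.52% and 55.8% of the genes differed by as much. The light chain genes *Myl7* and *Myl4*, which in the adult heart mark atrial cardiomyocytes and which were picked out of the marker list after their values were seen, were higher in the same replicate as *Ces1d* within each genotype, which is 1 pair of libraries per genotype. *Myl7* measured 181 and 539 FPKM in replicates 1 and 2 of wild-type and 416 and 665 FPKM in those of knockout hearts. *Myl4* measured 139 and 345 FPKM, and 285 and 471 FPKM. Of the other cardiomyocyte markers of the same list, *Tcap* was also higher in replicate 2 in both genotypes. It was at 162 and 172 FPKM in knockout and 220.0 and 231 FPKM in wild-type replicates 1 and 2. Markers of other cells went both ways, with *Vwf* and *Cd68* among those higher in replicate 2 in both genotypes. *Myh7*, *Tnni1*, *Hrc* and *Ryr2* were not higher in replicate 2 in both genotypes. *Myh7* was at 456 and 699 FPKM in wild-type but 1039 and 531 FPKM in knockout replicates 1 and 2, *Tnni1* at 1607 and 2021 but 1662 and 1509 FPKM, and for *Ryr2* the ratio of replicate 2 to replicate 1 was 1.02 in wild-type and 0.984 in knockout hearts. Between genotypes *Myl7* and *Myl4* went the other way, with means 1.502 and 1.563 times as high in knockout hearts, where *Ces1d* was at 0.339 times its wild-type mean. Their part in the spread of *Ces1d* was not tested.

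**Figure D4:**
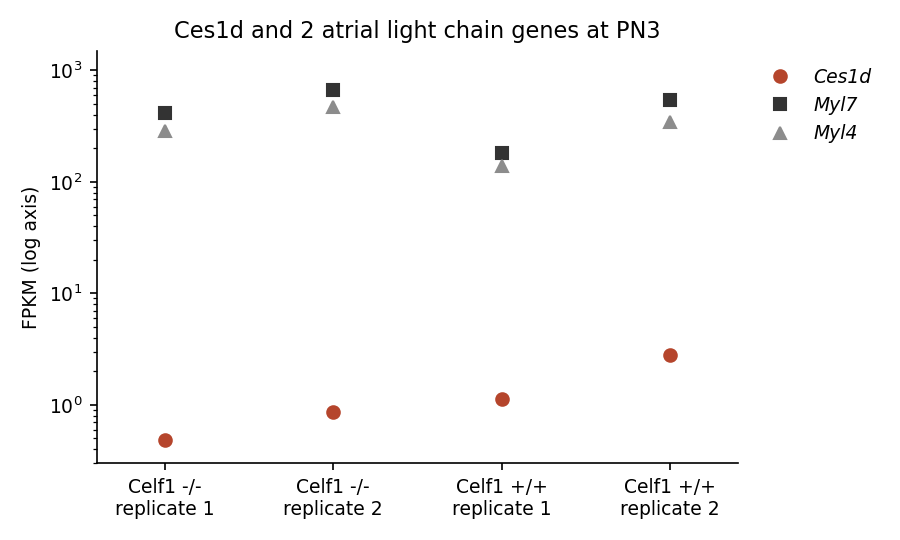
FPKM of *Ces1d*, *Myl7* and *Myl4* on a logarithmic axis in the 4 PN3 libraries, each point 1 library. In both genotypes all 3 genes are higher in replicate 2 than in replicate 1, with *Ces1d* at 0.48 and 0.86 FPKM in knockout and at 1.13 and 2.82 FPKM in wild-type hearts.

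RSEM, the program that estimated the levels, also gives each gene a mean transcript length, weighted by the share of each of its transcripts. FPKM, whose ratio chose the genes, divides by the effective form of this length. A shorter length at PN38 raises that ratio, so the length is not independent of the choice of the genes. A longer length in knockout hearts lowers their FPKM, and *Xirp2* is named from the study's list of genes that differ at PN3. Its length difference between genotypes may therefore not be independent of the naming either. For *Xirp2*, which has 5 transcripts in the deposited files, the mean length was 11342 and 10321 bases in knockout hearts at PN3, 9268 and 8877 bases in wild-type hearts at PN3 and 8197 bases at PN38. The order of the groups by length was the reverse of their order by level, with the longest mean in the hearts where *Xirp2* was lowest. The mean was 1759 bases longer in knockout than in wild-type hearts, at 10830 ± 722 and 9072 ± 276 bases (SD, n = 2 each), and at PN38 it differed from the wild-type mean at PN3 by −876 bases. Of 8160 genes whose mean length varied, 6 with *Xirp2* among them (0.0735%) had as large an increase of log2 length in knockout hearts, and 280 (3.43%) had as large a decrease at PN38. Both knockout libraries were longer than both wild-type libraries in 21.4% of these genes, and PN38 was shorter than all 4 PN3 libraries in 38.4%. With 2 libraries against 2, an exact permutation test cannot give a two-sided p below 0.333, so no test was made.

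FPKM divides a count by length, and *Xirp2* differed more between genotypes in FPKM than in counts. As CPM, counts scaled to the library total, it stood at 33.5 and 57.2 in knockout and at 81.7 and 65.1 in wild-type hearts at PN3. GENCODE lists 3 transcripts of *Xirp2* in mm9, a pair of 11979 and 11955 bases that span the locus with 9 exons each, and one of 2044 bases with 2 exons from 67355020 to 67364661 at the 3′ end. The deposited values do not give the level of each transcript. *Art1* has 2 transcripts in the files, and its mean length lay between 1417 and 1432 bases in all 5 libraries. *Ces1d* has 1 transcript of 1966 bases.

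**Figure D5:**
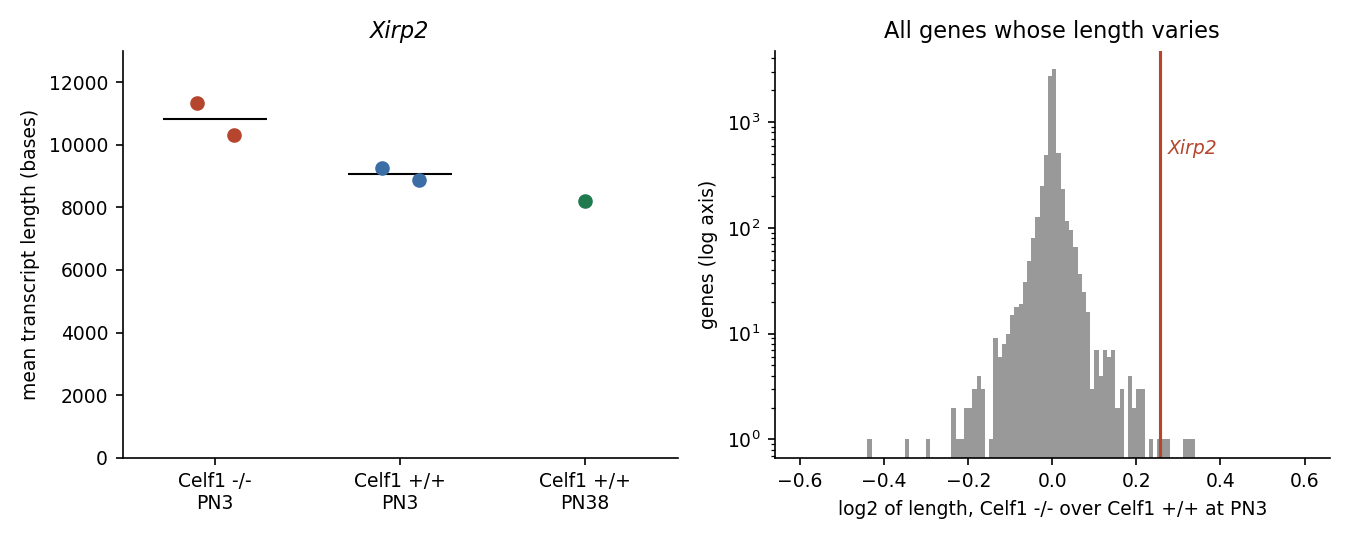
Left, mean transcript length of *Xirp2* in bases by group, with points for libraries and bars for means of 2 libraries; it falls from 11342 bases in a knockout library to 8197 bases at PN38. Right, number of genes (logarithmic axis) by log2 length in knockout over wild-type hearts at PN3 for 8160 genes, with *Xirp2* in the right tail at 0.26.

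RSEM splits fragments that fit several genes. The expected counts of *Art1* were not whole in 4 of the 5 libraries, and in all 5 libraries they added up to a whole number with those of the unnamed gene that follows it in the numbering of the files, exactly at the 2 decimals given. That gene had 374 expected counts at PN38 and 16.0 to 47.3 at PN3, between 2.26% and 19.2% of those of *Art1*, with the highest share in knockout replicate 1. The counts of *Ces1d*, which belongs to a cluster of similar carboxylesterase genes on chromosome 8, were whole in every library.

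*Art5*, which overlaps *Art1* on the other strand and encodes a secreted member of its family, measured 6.14 FPKM at PN38, 1.33 and 1.59 FPKM in wild-type and 0.51 and 0.59 FPKM in knockout hearts at PN3. It was highest at PN38 and lowest in both knockout libraries, but at PN3 it reached 1 FPKM only in wild-type hearts, so that a lower knockout level came with its entry. Its log2 fold change between PN38 and PN3 was 2.57 (standard error 0.217, adjusted p = 5.8e-04), and between genotypes it was −1.40 (standard error 0.204, adjusted p = 0.088), both from edgeR's quasi-likelihood test.

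Few genes of the related pathways carry a name, and a gene called higher at PN38 carries one only if the study also listed it at PN3, so the counts that follow do not describe whole pathways. A gene lower at PN38 could be named from the study's list for development because it fell. Counts of genes that fell and negative medians at PN38 are therefore not independent of the naming. Over all genes compared, named or not, 7.33% were called higher and 22.4% lower at PN38, with a median log2 fold change of −0.02. The named genes are an unlike set, so nothing is read from their counts and medians at PN38 against those values. At PN3 the genotype test called 0.048% of the 12502 genes lower and 0.008% higher. A count of 0 calls at PN3 is near that share and is no result about a list. Of 34 genes that add, remove or bind ADP-ribose, 3 besides *Art1* are named. *Art5* and *Macrod1*, a mitochondrial hydrolase that acts on ADP-ribose, rose at PN38, with log2 fold changes of 2.57 and 1.57, and *Tnks*, a poly-ADP-ribosyltransferase, fell by 0.90 on the log2 scale. At PN3 0 of the 3 were called, with a log2 fold change of −0.49 for *Macrod1* (adjusted p = 0.12) and 0.01 for *Tnks* (adjusted p = 0.96) in the same test. Of 20 carboxylesterase genes, *Ces1d* is the only one with a name.

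Of 51 genes of neutral lipid handling 14 are named, and 3 of them rose, 9 fell and 2 were not called at PN38, with a median log2 fold change of −0.84 (0.07 between genotypes at PN3). The genes that rose were *Dgat2*, which makes triacylglycerol (log2 fold change 2.16), *Lpin1*, a phosphatidate phosphatase (2.10), and *Acss1*, a mitochondrial acetyl-CoA synthetase (2.81). Those that fell included *Acot1*, an acyl-CoA thioesterase (−2.48), *Angptl4*, an inhibitor of lipoprotein lipase (−2.06), and *Cpt1a*, the liver form of the carnitine palmitoyltransferase (−1.79). *Acss3* (−2.57), *Ppargc1b* (−1.09), *Fabp5* (−0.86), *Agpat9* (−0.81) and *Ucp3* (−0.80) also fell, while *Lpin2* (−0.44) and *Mttp* (−0.34) did not pass both thresholds. At PN3 0 of the 14 were called, and *Dgat2* (24.3 and 24.3 FPKM in knockout and 36.4 and 38.4 FPKM in wild-type hearts) had the lowest adjusted p in edgeR's quasi-likelihood test, 0.067.

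Of 50 genes of the intercalated disc and Z-disc, 6 besides *Xirp2* are named, and 0 rose, 5 fell and 1 was not called at PN38, with a median log2 fold change of −0.95 (0.01 between genotypes at PN3). *Gja5* (−1.42) and *Gjc1* (−1.06) encode connexins, *Ctnnd1* (−0.89) encodes p120 catenin, *Vasp* (−0.91) encodes an actin regulator and *Mef2a* (−0.98) encodes the transcription factor named above. For *Dsc2*, a desmosomal cadherin, it was 0.26 (adjusted p = 0.21 by quasi-likelihood in edgeR). At PN3 0 of the 6 were called, with log2 fold changes from −0.13 (*Mef2a*) to 0.50 (*Dsc2*).

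To find genes with a pattern like that of the 3, log2(FPKM + 0.1) was centred on each gene's mean over the 5 libraries, and genes were ordered by the root mean square difference. Of the 12816 genes compared, none lay nearer to *Art1* than *Ces1d*, at 0.358, and *Xirp2* was at 0.483 from *Art1* with 2 unnamed genes nearer. Seen from *Xirp2*, 12 genes lay nearer than *Art1* and 26 nearer than *Ces1d* (0.566), so the 3 were not all nearest to each other. Since the choice of the genes fixed most of this pattern, it is a description. *Ifi27l2a* and *Iigp1*, both induced by interferon, were the other named genes among the nearest 5 of all 3 genes. *Ifi27l2a* measured 118 FPKM at PN38, 15.1 and 8.07 FPKM in wild-type and 3.82 and 4.49 FPKM in knockout hearts at PN3, and lay at 0.517 from *Xirp2* (18 unnamed genes nearer), 0.785 from *Art1* (25) and 0.944 from *Ces1d* (41). *Iigp1* measured 29.8 FPKM at PN38, 4.11 and 4.60 FPKM, and 1.67 and 2.37 FPKM, at distances from 0.736 to 1.031. The fifth place was taken by *Rxrg*, a retinoid X receptor, for *Art1* (1.029), and by *Lrtm1* for *Ces1d* (1.088) and *Xirp2* (0.760).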

How the data were processed

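RNA-seq of 5 libraries of ventricle RNA was analysed. Read pairs were mapped by the authors with TopHat (build mm9), and RSEM (1.2.4 in the submitters' processing notes) gave the gene levels. The deposited expected counts are not normalized, and the deposited FPKM and TPM are scaled by the authors to effective transcript length and library. FPKM recomputed from counts differed by at most 0.367% for the 3 genes. Genes were named by exact match of FPKM to the study's lists of changed genes, which named 2634 of 28416 genes. The list for development was read only in part, and no gene called higher at PN38 took its name from that part alone. The 3 genes and all gene lists were chosen with earlier results of these data known.

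The main test was the quasi-likelihood test of edgeR 4.0.16 (glmQLFit, glmQLFTest and TMM, with limma 3.58.1 in R 4.3.3) on rounded expected counts, with p-values adjusted by Benjamini-Hochberg. The genotype fit held the 4 PN3 libraries and the genes whose FPKM reached 1 in each library of a genotype. The development fit held all 5 libraries as 3 groups and the genes whose FPKM reached 1 at PN38 or in each wild-type PN3 library, and took its spread from the PN3 libraries. Genes were called at FDR 0.05 when mean FPKM also differed 1.5 fold (genotype) or 2.0 fold (development). The standard error is the size of the log2 fold change over the square root of F. Named genes were the 3 genes, the named genes of 4 gene lists, *Celf1*, the 5 named genes nearest in pattern to each gene and the next named genes in the ratio at PN38, of which one known only by clone accessions was left out, and 1 further listed gene is not reported here by name. DESeq2 1.42.0, edgeR's exact test, other scalings, filters and sets of libraries, a replicate block and fits without one library were alternatives. The study's methods say that genotypes were compared between littermates, but no source used here ties a library to a litter or an animal, so p-values measure the spread between these libraries. Plots used matplotlib 3.10.9.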

Additional observations from a re-analysis of the deposited data

How the results depend on the processing

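The direction of every difference of *Art1*, *Ces1d* and *Xirp2* held under all alternatives run, at PN3 and in development. The PN3 calls depended on the test. In DESeq2 the log2 fold changes were −1.53 (*Art1*), −1.54 (*Ces1d*) and −0.69 (*Xirp2*) and all passed, in edgeR's exact test −1.53 (*Art1*) and −1.54 (*Ces1d*) passed, and with all 5 libraries −1.53 (*Art1*) passed. Without 1 library they ran from −1.68 to −1.36 for *Art1*, from −2.04 to −0.75 for *Ces1d* and from −1.09 to −0.37 for *Xirp2*, where the genotype with 1 library left is assumed to vary like the other. With a minimum of 5 FPKM *Art1* and *Ces1d* were not tested at PN3. Over all alternatives the adjusted p ran from 5.3e-08 to 0.19 for *Art1*, from 0.024 to 0.55 for *Ces1d* and from 0.032 to 0.41 for *Xirp2*.

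The number of genes called lower and higher at PN3, 6 and 1, was 232 and 139 in DESeq2, 216 and 127 in the exact test, 16 and 12 with library totals, 13 and 7 with a minimum of 5 FPKM and 17 and 9 with all 5 libraries, and without a filter 7 were higher. Without 1 library 3 to 75 were lower and 1 to 91 higher, with the highest counts without wild-type replicate 1. Same-numbered PN3 libraries deviated together, with a correlation across genes of 0.22, and although the study compared littermates, the labels do not say that a number marks a litter or batch. With the replicate block 2 genes were called higher, and *Art1*, *Ces1d* and *Xirp2* had log2 fold changes of −1.52 (adjusted p = 0.059 in edgeR's quasi-likelihood test), −1.47 (0.059) and −0.72 (0.19), with no call changed.

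In development, 1901 genes were lower and 614 higher with a minimum of 5 FPKM, against 2867 and 940. Log2 fold changes with library totals were 5.12 for *Art1* and 4.44 for *Xirp2*, those of FPKM 5.10 and 4.59, and those of TPM 4.86 and 4.36. Without 1 library they ran from 5.42 to 5.73 for *Art1*, from 4.92 to 6.20 for *Ces1d* and from 4.71 to 5.08 for *Xirp2*. The cause of these shifts was not tested beyond the median of all genes.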
